A study of Mus musculus with 16 samples.

Results

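The comparison described here set the liver transcripts of vehicle-treated obese mice on a high protein diet (HP) against those of vehicle-treated obese mice on a standard protein diet (SP). It used 8 of the 16 liver libraries of the series, 4 of HP mice and 4 of SP mice, with 1 library per mouse, chosen by their diet and treatment labels. All were male C57BL6/J mice that were made obese on a diet with 60% of its energy from fat, and both test diets were themselves high in fat, so that the groups differed in protein at a high fat intake. Each mouse was housed alone and was injected under the skin with vehicle once a day for 22 days. The sample records give an age of 10 weeks at the start of the high-fat diet, 8 weeks on it before the treatments began and a cull on day 25 after a 4 h fast. The published methods differ on these times. The other 8 mice received G108, a long-acting agonist of the glucagon receptor, at 2.5 nmol/kg on the same SP and HP diets, and they enter the filter on low values, the scaling and the shared estimate of the spread, while their own diet effect is given only at the end. The comparison addresses how the liver transcriptome of obese mice differs between the HP and SP diets without G108. Other differences in composition between the diets are not given in the sources used here and cannot be told apart from protein. The paper also reports a slightly lower food intake with added protein.

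The liver is where most amino acids from a meal are broken down. Transaminases pass the amino group on, mostly to form glutamate, specific enzymes open the carbon chains, and the urea cycle disposes of the nitrogen. Genes for these steps are known to respond to protein intake, glucagon and glucocorticoids. The hepatocyte also makes cholesterol under the control of SREBP2, turns glucose into fat under SREBP1c and ChREBP, and in male mice secretes large amounts of Major Urinary Proteins (Mup).

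Values are TPM, a transcript abundance in which the reads of a gene are divided by its exon length and every library is scaled to the same total. Levels in TPM can therefore be compared between genes. Because TPM are shares of a library, each difference is also given after a second scaling by the median of ratios (median-of-ratios scaling), under which the typical gene has the same level in all libraries. Fold changes are differences of log2(TPM + 1), HP minus SP, and understate the change of low genes. Genes with a mean of at least 1 TPM over the 16 libraries were tested, 11839 of 55487, with limma's moderated test.

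The SP libraries held between 33.4 and 45.03 M recovered reads and the HP libraries between 34.5 and 44.1 M. One SP library, of mouse 4, stood apart from the other 7. Its log2 values had a median correlation of 0.928 with the other libraries, against 0.970 to 0.982 for the rest, and 583 genes were at least 2-fold lower and 574 at least 2-fold higher than the mean of the other 7. The mean log2 level of 10 hepatocyte markers was -0.55 in SP mouse 4 relative to the 8 mice and -0.10 to 0.23 in the others, that of 5 red blood cell markers was 1.07 against -0.72 to 0.14, and the mitochondrial genome took 24.0% of its TPM against 13.8% to 20.7%. Genes of high GC content were also relatively higher in this library, by 0.17 on the log2 scale per 10 percentage points of GC, against -0.10 to 0.01 in the other 7. The part of these properties in the results below was not tested, and values without SP mouse 4 are given beside many of them. No marker of lymphocytes (0 of 9), neutrophils (0 of 6), adipocytes (0 of 6) or skeletal muscle (0 of 7) reached a mean of 1 TPM. With the median-of-ratios scaling, the median differences were 0.08 for 9 Kupffer cell markers, -0.04 for 7 endothelial markers, 0.02 for 5 stellate cell markers and 0.06 for the hepatocyte markers. In bulk liver, fewer cells of a type and less RNA per cell cannot be told apart.

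No gene passed an adjusted p of 0.05 in limma, on TPM or after median-of-ratios scaling (0.0% of genes called). The smallest adjusted p was 0.506 on TPM and 0.580 after scaling, and limma's voom on the recovered reads also called 0 genes, as did a fit of the 8 vehicle libraries only, in which 295 genes on TPM and 281 after scaling were at an unadjusted p under 0.05. An unadjusted p under 0.05 was reached by 374 genes on TPM (3.16%), 324 of them higher on HP (2.74%) and 50 lower (0.422%). After scaling it was reached by 466 genes (3.94%), 219 higher (1.85%) and 247 lower (2.09%), and with voom by 474. When no gene differs, an unadjusted p under 0.05 is reached by 5% of genes on average. For the genes named below the limma adjusted p lay between 0.506 and 0.848 on TPM and between 0.580 and 0.923 after scaling, and their differences are therefore given with the standard error (SE) or the 95% confidence interval.

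The intervals show what size of change 4 mice a side left possible. Of the genes tested, 10343 (87.4%) on TPM and 10763 (90.9%) after scaling had a 95% confidence interval that lay wholly within a 2-fold change in either direction. The median half-width of that interval was 0.38 on the log2 scale on TPM and 0.30 after scaling. These intervals are on log2(TPM + 1), which understates the change of low genes, so for such genes they can still allow a 2-fold change in TPM. With a pseudocount of 0.1 the number of genes wholly within a 2-fold change was 9054 on TPM, and with voom it was 9791. The middle 90% of fold changes ran from -0.15 to 0.51 on TPM and from -0.32 to 0.36 after scaling. A fold change of at least 2 was estimated for 63 genes on TPM and for 62 after scaling.

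On TPM, 80.4% of all genes were higher on HP, with a median fold change of 0.14 on the log2 scale, whereas after scaling the median was -0.00 and 48.8% were higher. With TPM rescaled without mitochondrial genes the median was 0.15, and without mitochondrial and Mup genes it was -0.0040. Counts of genes higher on HP on TPM, here and below, include this shift of all genes. The groups did not overlap for 174 genes on TPM (1.47%), with 158 higher (1.33%) and 16 lower (0.135%) on HP. After scaling this held for 238 genes (2.01%), 111 of them higher (0.938%) and 127 lower (1.07%), and 58 genes were separated under both scalings, 43 higher and 15 lower. The count on TPM moved by more than 1.5 times when 1 library was left out, to 292 without SP mouse 1, 762 without SP mouse 2, 351 without SP mouse 3, 358 without SP mouse 4, 1230 without HP mouse 1, 283 without HP mouse 3 and 412 without HP mouse 4, where fewer values have to be separated. The unadjusted count likewise moved to 1019 without SP mouse 2, 713 without SP mouse 3, 711 without HP mouse 1, 208 without HP mouse 2 and 247 without HP mouse 3.

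**Figure D1:**
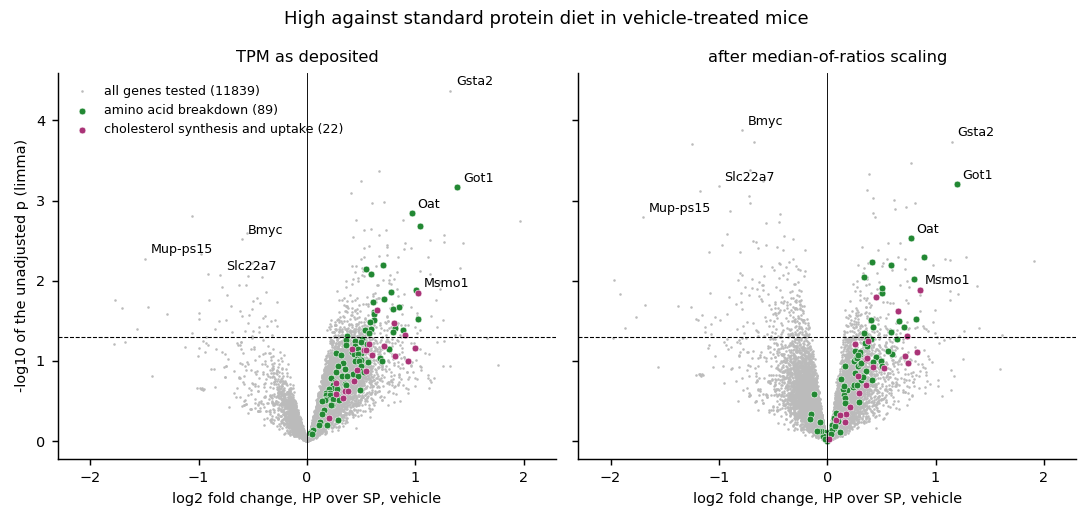
Each point is 1 of 11839 genes, with the log2 fold change of HP over SP in vehicle-treated mice on the x axis and -log10 of the unadjusted limma p on the y axis, on TPM (left) and after median-of-ratios scaling (right). The dashed line marks an unadjusted p of 0.05. Green points are 89 genes of amino acid breakdown, all to the right of 0 on TPM and 77 of them after scaling, and purple points are 22 genes of cholesterol synthesis and uptake, all to the right of 0 in both.

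The genes of amino acid breakdown had higher means in the HP livers almost throughout, although no single gene passed the adjustment on TPM or after scaling. Array weights, which are given in the last section and were highest for HP mouse 3, did call some of them. In 8 lists that cover the urea cycle, transaminases and the breakdown of individual amino acids, 89 gene identifiers were tested (Gcat has 2). All 89 had a higher mean on HP on TPM, with a median log2 fold change of 0.44 against 0.14 for all genes. On TPM 24 had an unadjusted p under 0.05 (27.0%, against 2.74% of all genes that were higher). Without SP mouse 4 it was 12, against 217 of 11815 genes overall that were higher. After median-of-ratios scaling 77 of the 89 were higher, the median was 0.25 against -0.00 for all genes, 17 were at an unadjusted p under 0.05 and higher (19.1%, against 1.85% of all genes), and 0 were lower. Without SP mouse 4, 75 of 89 were higher after scaling, with a median of 0.15. In that setting 10 of them were at an unadjusted p under 0.05, against 154 of 11815 genes that were higher. The scaled mean level of the 89 genes was 0.05, -0.13, -0.08 and -0.36 in the SP mice and 0.11, 0.12, 0.19 and 0.10 in the HP mice, relative to the mean of the 8 mice on the log2 scale. All 4 HP mice thus lay above all 4 SP mice, with SP mouse 1 close to them and SP mouse 4 well below. These genes are co-expressed and are not replicates of one another. The lists were chosen with earlier results of these data known, so this separation may in part come from the choice.

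**Figure D2:**
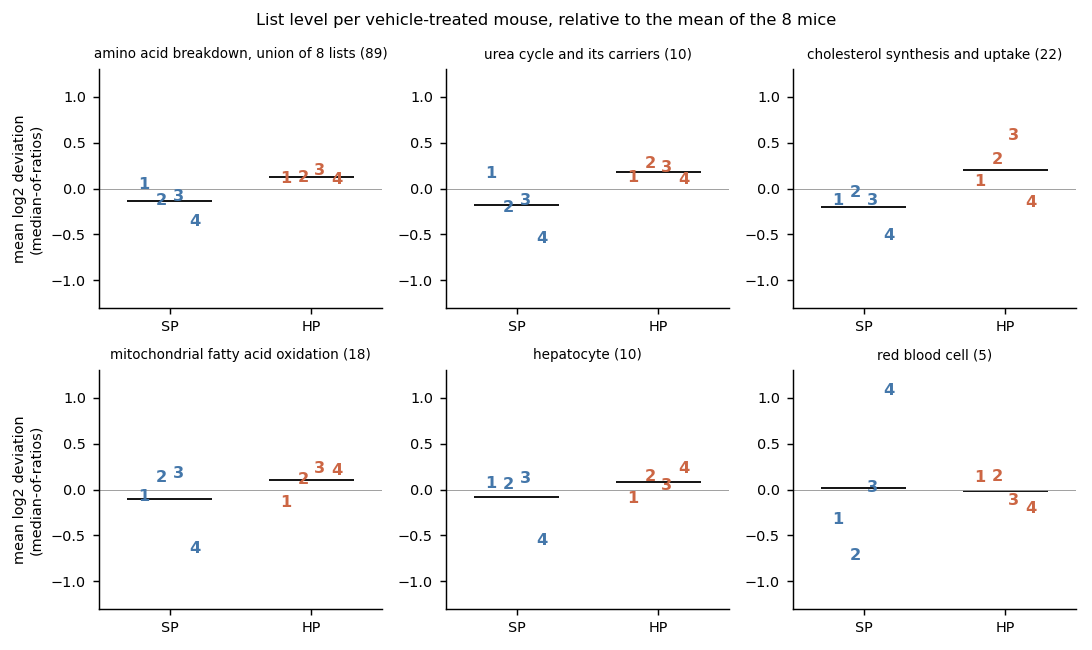
Mean log2 deviation of the genes of 6 lists in each vehicle-treated mouse after median-of-ratios scaling, relative to the mean of the 8 mice, with the number of genes tested in brackets. Digits are the mouse numbers within SP and HP and horizontal lines the group means. The lists were chosen with earlier results of these data known. The HP mice lie above the SP mice for the 89 amino acid breakdown genes, whereas SP mouse 4 is the lowest for hepatocyte markers (-0.55) and the highest for red blood cell markers (1.07).

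A transaminase had the largest fold change among these 89 genes under both scalings. Got1, the cytosolic aspartate aminotransferase, stood at 50.8, 38.7, 25.9 and 16.8 TPM in the SP mice and at 85.9, 99.4, 85.2 and 60.6 TPM in the HP mice. The groups did not overlap on TPM, whereas after scaling SP mouse 1 lay above HP mouse 4. The log2 fold change was 1.39 (SE 0.33) on TPM and 1.20 (SE 0.28) after scaling, and 0.99 after scaling without SP mouse 4. Oat, which converts ornithine to glutamate semialdehyde, stood at 349, 271, 259 and 169 TPM on SP and at 480, 571, 556 and 405 TPM on HP. Its groups were also separate on TPM and overlapped after scaling at the same pair of mice, with a fold change of 0.97 on TPM (SE 0.25) and 0.77 after scaling (SE 0.22). Tat, the tyrosine aminotransferase, was more variable, at 345, 205, 175 and 136 TPM on SP and 466, 532, 324 and 221 TPM on HP. Its groups overlapped, and the fold change of 0.85 on TPM became 0.64 after scaling. Of the 13 transaminases tested, 13 were higher on TPM and 11 after scaling, where the median was 0.27, or 0.15 without SP mouse 4.

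The urea cycle and its carriers were higher in mean on HP for 10 of 10 genes under both scalings. The median log2 fold change was 0.48 on TPM and 0.29 after scaling, and it was 0.24 after scaling without SP mouse 4, when all 10 were still higher. After scaling, 4 genes (40.0%) were higher at an unadjusted p under 0.05, against 1.85% of all genes. Without SP mouse 4 it was 2 of the 10, against 154 of 11815 genes. Slc25a15, the mitochondrial ornithine carrier, stood at 20.1, 21.5, 20.4 and 10.9 TPM on SP and at 28.5, 40.5, 30.8 and 25.5 TPM on HP. Here every HP mouse was above every SP mouse under both scalings, with a fold change of 0.59 after scaling (SE 0.18) that was 0.44 without SP mouse 4. Cps1, which makes carbamoyl phosphate in the first step of the cycle, stood at 179, 164, 201 and 58.7 TPM on SP and 166, 404, 293 and 307 TPM on HP. One HP mouse lay among the SP mice, and SP mouse 4 was far below all others. The scaled fold change of Cps1 was 0.82 (SE 0.34) and 0.49 without SP mouse 4. Ass1, the argininosuccinate synthase, stood at 959, 652, 586 and 336 TPM on SP and at 1064, 1148, 1092 and 831 TPM on HP. On TPM its groups overlapped at HP mouse 4, whereas after scaling SP mouse 1 lay above all HP mice. The scaled fold change of Ass1 was 0.59 (SE 0.27) and 0.39 without SP mouse 4. For the other enzymes of the cycle the interval included 0. After scaling, the fold change was 0.15 for Otc (95% interval -0.10 to 0.40), 0.24 for Asl (-0.15 to 0.63), 0.17 for Arg1 (-0.19 to 0.53) and 0.09 for Nags (-0.15 to 0.32), which excludes a 2-fold difference for each. Without SP mouse 4 the values were 0.04 for Otc, 0.24 for Asl, 0.02 for Arg1 and 0.02 for Nags. Gls2, the liver glutaminase that feeds ammonia to Cps1, was at 79.7, 66.4, 52.1 and 46.1 TPM on SP and at 107, 111, 95.6 and 80.3 TPM on HP. Its groups touched but did not overlap on TPM and overlapped after scaling, where SP mouse 1 lay above 3 of the HP mice, and the scaled fold change was 0.50 (SE 0.18).

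Tyrosine is broken down in sequence by Tat, Hpd, Hgd and further enzymes. Hpd, the hydroxyphenylpyruvate dioxygenase that follows Tat, stood at 552, 583, 587 and 427 TPM on SP and at 758, 891, 795 and 683 TPM on HP. It was higher in each HP mouse than in any SP mouse on TPM, while the groups overlapped after scaling. The scaled fold changes were 0.34 for Hpd (SE 0.11) and 0.42 for Hgd (SE 0.18), which opens the ring of homogentisate, and they were 0.31 and 0.24 without SP mouse 4. Over the 8 genes of phenylalanine and tyrosine breakdown the scaled median was 0.36, and 0.20 without that mouse.

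Serine, threonine and glycine breakdown had 12 of 12 identifiers higher under both scalings, with a scaled median of 0.30, while without SP mouse 4 it was 11 of 12 with a median of 0.14. Gnmt, which methylates glycine and consumes excess S-adenosylmethionine, stood at 456, 484, 543 and 173 TPM on SP and at 624, 985, 829.9 and 667 TPM on HP. Its groups were separate under both scalings, with a scaled fold change of 0.80 (SE 0.27) and 0.50 without SP mouse 4. Sds, the serine dehydratase that classically follows protein intake, stood at 189, 147, 93.8 and 161 TPM on SP and at 332, 233, 225 and 135 TPM on HP. The fourth HP mouse lay below 3 SP mice, and the scaled fold change of 0.42 had an interval of -0.20 to 1.04 and was 0.16 without SP mouse 3 and 0.17 without HP mouse 1.

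In the tryptophan and kynurenine pathway, 10 of 10 genes were higher on TPM and 8 after scaling (median 0.20, or 0.15 without SP mouse 4). Acmsd, which diverts the pathway away from NAD synthesis, stood at 5.33, 2.95, 2.51 and 2.41 TPM on SP and at 11.2, 9.37, 6.05 and 5.05 TPM on HP. The groups overlapped, since SP mouse 1 was above HP mouse 4, and the scaled fold change was 0.89 (SE 0.27) and 0.85 without SP mouse 4. For Tdo2, the dioxygenase that opens the pathway, the scaled fold change of 0.56 had an interval of -0.07 to 1.19 and was 0.25 without SP mouse 4.

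Branched-chain amino acid breakdown had 20 of 20 genes higher on TPM and 18 after scaling, with a scaled median of 0.22, while without SP mouse 4 it was 15 of 20 with a median of 0.12. Dbt, the core of the branched-chain ketoacid dehydrogenase, stood at 8.41, 9.81, 12.8 and 10.1 TPM on SP and at 14.5, 17.2, 15.2 and 16.7 TPM on HP. The HP mice lay above the SP mice under both scalings, by 0.41 on the log2 scale after scaling (SE 0.13), and the difference was 0.48 without SP mouse 4. In the methionine cycle and transsulfuration, 10 of 11 genes were higher after scaling with a median of 0.12, and 6 of 11 with the same median without SP mouse 4. Cbs, which commits homocysteine to cysteine synthesis, had a scaled fold change of 0.40 and 0.21 without SP mouse 4. Of the 12 genes for histidine, proline, lysine and glutamine breakdown 8 were higher after scaling with a median of 0.09, and 12 with a median of 0.17 without SP mouse 4. Aldh1b1, a mitochondrial aldehyde dehydrogenase that is in none of the lists, stood at 5.47, 8.08, 7.98 and 1.21 TPM on SP and at 15.8, 17.5, 13.9 and 11.6 TPM on HP. All HP mice were above all SP mice, and the scaled fold change of 1.28 (SE 0.39) was 0.84 without SP mouse 4.

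**Figure D3:**
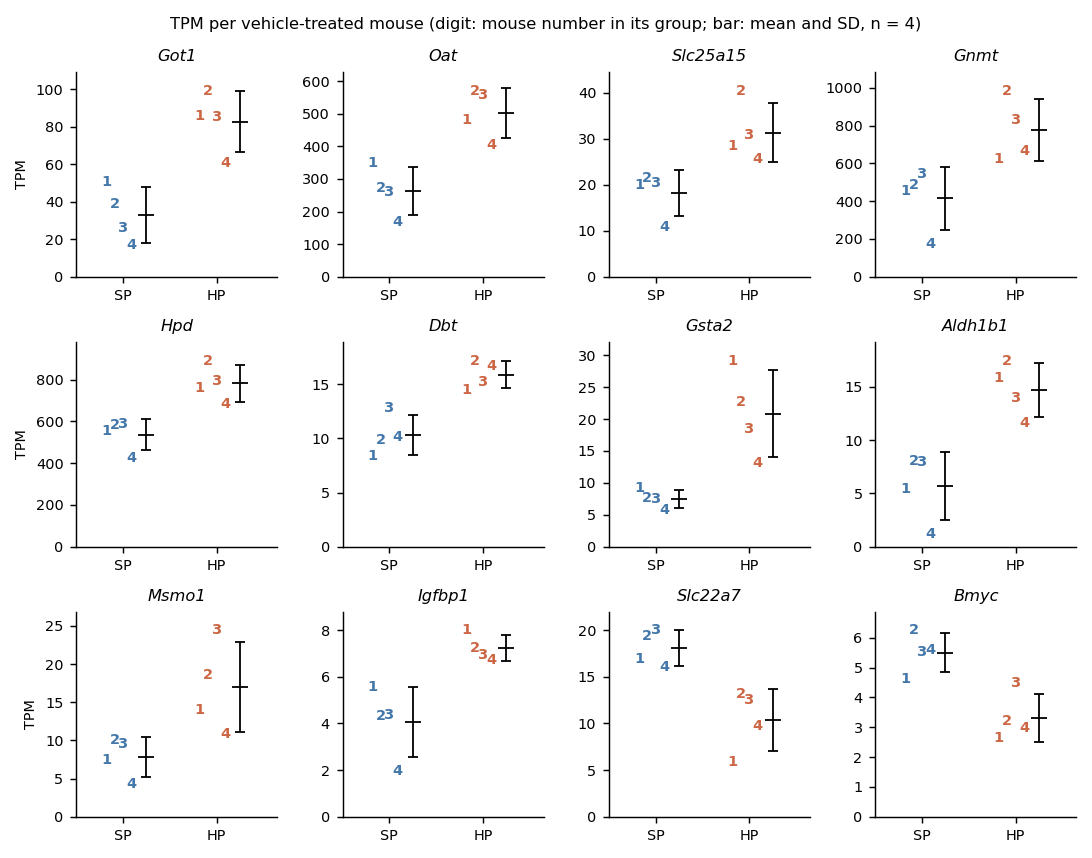
TPM (y axis, from 0) of 12 genes in each vehicle-treated mouse, with SP in blue and HP in orange. Digits are mouse numbers within a group, and bars give the mean and SD of 4 mice. The 12 genes were picked for display from genes named with these same values known, so their separation is a result of the choice. The groups do not overlap on TPM for any of them, as held for 174 of all 11839 genes (1.47%). After scaling Got1, Oat, Hpd and Igfbp1 overlap. HP lies above SP for all but Slc22a7 and Bmyc, and SP mouse 4 is the lowest SP value for most of the 12.

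Amino acid uptake was covered by a separate list of transporters. Of 15 transporter genes tested, 14 had a higher mean on HP on TPM and 13 after scaling, with a scaled median of 0.14 (0.12 without SP mouse 4), and 4 (26.7%) were higher at an unadjusted p under 0.05 while 1 (6.67%) was lower, against 1.85% and 2.09% of all genes. Slc38a4, a neutral amino acid transporter of hepatocytes, stood at 118, 139.5, 124.5 and 68.2 TPM on SP and at 141, 201, 179 and 174 TPM on HP. On TPM the lowest HP mouse was just above the highest SP mouse, whereas after scaling SP mouse 1 lay just above HP mouse 1, and the scaled fold change was 0.46 (SE 0.15) and 0.31 without SP mouse 4. Slc38a2, the amino acid responsive transporter of the same family, had a scaled fold change of 0.06 (interval -0.30 to 0.41). Slc7a2, a carrier of arginine and other cationic amino acids, had one of 0.57 (interval -0.01 to 1.15). Rhbg, an ammonium transporter of the pericentral hepatocytes that also express Oat, stood at 1.86, 2.92, 2.92 and 1.75 TPM on SP and at 3.02, 4.32, 3.99 and 3.59 TPM on HP. Its groups were separate under both scalings (scaled fold change 0.37, SE 0.12), and Slc1a2, a glutamate transporter of the same cells, had a scaled fold change of 0.34 (SE 0.11). The whole list of 13 pericentral Wnt targets had a scaled median of -0.09.

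The genes of amino acid shortage showed no common direction. ATF4, which is activated when amino acids are scarce, and its targets had a scaled median of 0.00 over 13 genes, 7 of them higher, and the amino acid sensing genes upstream of mTORC1 had 0.03 over 15 genes. Within the ATF4 list, Atf5 stood at 84.8, 149, 103 and 26.5 TPM on SP and at 165, 150.3, 141 and 115 TPM on HP. Only SP mouse 2 reached the HP range from the SP side, and the scaled fold change of 0.68 was 0.24 without SP mouse 4. Asns, Phgdh and Psat1, which make asparagine and serine, stayed below 1 TPM in each of the 8 vehicle libraries and were not tested.

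All 22 genes of cholesterol synthesis and uptake had a higher mean on HP under both scalings and also without SP mouse 4. The median log2 fold change was 0.55 on TPM and 0.36 after scaling, or 0.31 after scaling without SP mouse 4, and the scaled median lay between 0.26 and 0.47 with each of the 8 libraries left out in turn. After scaling, 4 of 22 genes were at an unadjusted p under 0.05 (18.2%, against 1.85% of all genes) and 4 had groups that did not overlap (against 0.938% of all genes). Without SP mouse 4, 3 of the 22 were at that p after scaling, against 154 of 11815 genes that were higher. On TPM 4 genes were at an unadjusted p under 0.05 (18.2%, against 2.74% of all genes), and 0 without SP mouse 4. The scaled mean level of the list was -0.13, -0.05, -0.13 and -0.51 in the SP mice and 0.08, 0.32, 0.57 and -0.15 in the HP mice. HP mouse 4 thus lay among the SP mice, and HP mouse 3 was the highest.

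Msmo1, a sterol demethylase, stood at 7.38, 10.02, 9.48 and 4.32 TPM on SP and at 14.03, 18.5, 24.4 and 10.8 TPM on HP. The HP mice were all above the SP mice under both scalings, with a scaled fold change of 0.85 (SE 0.30) and 0.69 without SP mouse 4. Cyp51, the lanosterol demethylase before it in the pathway, stood at 8.79, 13.7, 11.05 and 3.15 TPM on SP and at 13.3, 19.8, 20.995 and 12.6 TPM on HP. Its groups overlapped on TPM and not after scaling, where the fold change was 0.74 (SE 0.35) and 0.41 without SP mouse 4. Hsd17b7, which reduces the sterol ketone, had a scaled fold change of 0.66 (SE 0.26). Insig1, the endoplasmic reticulum protein that holds SREBP back and is itself a target of SREBP, stood at 47.2, 60.4, 59.4 and 35.8 TPM on SP and at 74.3, 103, 86.3 and 56.8 TPM on HP. HP mouse 4 lay within the SP range, and the scaled fold change was 0.45 (SE 0.17).

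These 4 genes had the smallest unadjusted limma p of the list on TPM. Their promoters are shown because the pathway has a known shared regulator. Each runs from 250 bases before to 50 bases after the RefSeq start site (GRCm38.p6), read 5′ to 3′ on the strand of the gene, at chr8:64733529-64733828 (minus strand) for Msmo1, chr5:28071162-28071461 (plus) for Insig1, chr1:169969156-169969455 (minus) for Hsd17b7 and chr5:4104648-4104947 (minus) for Cyp51. Capitals mark the CCAAT box, the recognition sequence of NF-Y, and the GC box GGGCGG, that of Sp1, each on either strand.
Msmo1: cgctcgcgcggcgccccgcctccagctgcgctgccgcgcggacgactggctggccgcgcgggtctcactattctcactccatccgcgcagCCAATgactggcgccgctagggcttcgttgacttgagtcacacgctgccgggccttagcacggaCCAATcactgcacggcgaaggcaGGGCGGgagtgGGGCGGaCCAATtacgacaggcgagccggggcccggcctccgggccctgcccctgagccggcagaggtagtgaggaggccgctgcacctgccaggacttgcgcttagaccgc
Insig1: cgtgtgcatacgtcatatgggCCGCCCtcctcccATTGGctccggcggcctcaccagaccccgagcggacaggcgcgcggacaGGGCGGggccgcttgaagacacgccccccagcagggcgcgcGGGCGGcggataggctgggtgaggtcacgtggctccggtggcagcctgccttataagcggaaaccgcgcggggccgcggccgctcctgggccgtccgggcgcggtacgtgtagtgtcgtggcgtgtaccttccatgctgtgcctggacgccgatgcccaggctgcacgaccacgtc
Hsd17b7: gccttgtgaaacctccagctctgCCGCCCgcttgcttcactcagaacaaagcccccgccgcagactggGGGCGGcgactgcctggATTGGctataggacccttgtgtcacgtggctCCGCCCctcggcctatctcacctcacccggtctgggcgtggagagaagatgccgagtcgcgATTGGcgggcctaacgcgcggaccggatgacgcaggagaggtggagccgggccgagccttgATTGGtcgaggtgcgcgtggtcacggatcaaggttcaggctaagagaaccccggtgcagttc
Cyp51: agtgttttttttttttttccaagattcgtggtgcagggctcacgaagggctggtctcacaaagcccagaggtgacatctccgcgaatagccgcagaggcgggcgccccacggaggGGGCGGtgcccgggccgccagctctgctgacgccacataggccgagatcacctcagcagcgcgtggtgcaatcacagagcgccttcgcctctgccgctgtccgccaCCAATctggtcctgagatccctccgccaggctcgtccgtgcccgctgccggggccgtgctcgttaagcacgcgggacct
These windows hold 3, 1, 3 and 1 CCAAT boxes and 2, 3, 3 and 1 GC boxes in the order printed, and the 2 motifs share no letters. Of the cholesterol genes, 14 had a promoter in the table. A CCAAT box was in all 14 and a GC box in 13 (92.9%), against 42.7% and 66.9% of the 7627 genes tested that had one. The SREBP consensus TCACNCCAC, with N for any base, was found on either strand in 1 of the 14, Hmgcs1 (7.14%), and in 1.57% of the genes tested. Over all 32817 promoters of the table the shares were 37.4%, 35.6% and 1.24%. The CCAAT box is short enough to be frequent, and a match is a match of letters only.

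Enzymes of xenobiotic defence held the gene with the smallest p on TPM. Gsta2, a glutathione S-transferase, stood at 9.26, 7.57, 7.45 and 5.72 TPM on SP and at 29.2, 22.6, 18.5 and 13.1 TPM on HP. The lowest HP mouse was above the highest SP mouse under both scalings. The log2 fold change was 1.32 (SE 0.24, limma adjusted p = 0.506) on TPM and 1.15 (SE 0.23, limma adjusted p = 0.580) after scaling, and 1.11 after scaling without SP mouse 4. Gsta1, a near-identical paralog with which it may share reads, stood at 2.31, 1.35, 1.90 and 1.51 TPM on SP and at 13.6, 6.19, 4.45 and 2.24 TPM on HP. HP mouse 4 lay within the SP range, and the scaled fold change was 1.14 (SE 0.38), or 0.71 without HP mouse 1. Nqo1, a quinone reductase that like the Gsta genes is a target of NRF2, was lower in level, at 1.49, 2.57, 2.19 and 1.32 TPM on SP and at 2.72, 3.31, 3.29 and 2.59 TPM on HP. Its groups were separate under both scalings by a narrow margin, with a scaled fold change of 0.36 (SE 0.12). Of the 17 antioxidant and metallothionein genes 11 were higher after scaling, with a median of 0.11 (0.04 without SP mouse 4) and 4 (23.5%, against 1.85% of all genes) at an unadjusted p under 0.05, all higher. The fourth, Srxn1, had a scaled fold change of 0.30. The 46 phase II conjugation enzymes, which include Gsta1 and Gsta2, had a scaled median of 0.03 with 27 higher. Of them 2 were higher and 2 lower at an unadjusted p under 0.05 (4.35% each). For 35 genes of cytochrome P450 families 1 to 3 the scaled median was -0.05, with 17 higher, and 0 were higher and 2 lower at that p.

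Bile acid synthesis and the Cyp4a genes contributed single genes rather than whole lists. Cyp8b1, which sets the share of cholic acid in bile, stood at 28.98, 66.6, 48.4 and 21.8 TPM on SP and at 60.1, 98.7, 133 and 84.6 TPM on HP. The groups overlapped on TPM and not after scaling (fold change 1.04, SE 0.35), and 10 of the 17 genes of the list were higher after scaling, with a median of 0.07. Cyp4a10, a fatty acid hydroxylase induced by PPAR alpha, stood at 5.77, 67.0, 53.7 and 28.8 TPM on SP and at 41.5, 71.5, 103 and 63.9 TPM on HP. The SP mice alone spanned more than the difference between the groups, and the scaled fold change of 1.02 had an interval of -0.00 to 2.04 and was 0.36 without SP mouse 1. Cyp4a14, of the same family, had a scaled fold change of 1.21 with an interval of 0.01 to 2.42, and it was 0.79 without SP mouse 4. Over all 21 PPAR alpha targets the scaled median was -0.00, with 10 genes higher.

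Gluconeogenesis, fatty acid oxidation and ketone body synthesis had scaled medians above 0 with SP mouse 4 among the controls and near 0 without it. The scaled median of 13 gluconeogenesis genes was 0.31 with it and 0.01 without it, that of 18 mitochondrial fatty acid oxidation genes was 0.19 and 0.03, and that of 5 ketone body genes was 0.29 and -0.02. Pck1, the cytosolic phosphoenolpyruvate carboxykinase, stood at 469, 264, 214 and 78.8 TPM on SP and at 459.9, 556, 368 and 246 TPM on HP. Both ranges overlapped broadly, and the scaled fold change of 0.66 (interval -0.14 to 1.47) was 0.26 without SP mouse 4. G6pc, the glucose-6-phosphatase, had a scaled fold change of 0.48 (interval -0.06 to 1.02) and 0.43 without that mouse. Over 15 genes of the glucagon and cAMP response, which includes both, the scaled median was 0.21 with it and 0.22 without it, with 0 genes at an unadjusted p under 0.05. On TPM 3 of the 15 were higher at that p (20.0%, against 2.74% of all genes), and 0 without SP mouse 4. Igfbp1, a secreted binding protein of IGF1 that insulin represses, stood at 5.56, 4.33, 4.35 and 1.98 TPM on SP and at 7.98, 7.25, 6.94 and 6.73 TPM on HP. Its groups were separate on TPM and overlapped after scaling (fold change 0.61, SE 0.23). Igf1 itself had a scaled fold change of 0.08, with an interval of -0.19 to 0.36.

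Glycolysis and fat synthesis genes lay at or below the median of all genes. For 14 genes of glycolysis and glucose uptake the median was 0.02 on TPM and -0.18 after scaling, and -0.04 after scaling without SP mouse 4. For 21 genes of fatty acid and triglyceride synthesis it was 0.13 on TPM and -0.04 after scaling. Thrsp, a lipogenic protein that responds to carbohydrate, stood at 132, 129, 193 and 161 TPM on SP and at 84.8, 177, 116 and 64.4 TPM on HP. Of the HP mice 3 lay below all SP mice and 1 lay among them, with a scaled fold change of -0.76 (SE 0.26). Fasn, the fatty acid synthase, ranged from 27.4 to 101 TPM on SP and from 18.9 to 81.3 TPM on HP, so that its scaled fold change of -0.54 (interval -1.37 to 0.28) was smaller than the range within either group, and it was -0.14 without SP mouse 4. For the glucagon receptor gene Gcgr the interval of the scaled fold change ran from -0.95 to 0.32, and the fold change without SP mouse 4 was 0.03, on the opposite side of 0 from the value with it.

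**Figure D4:**
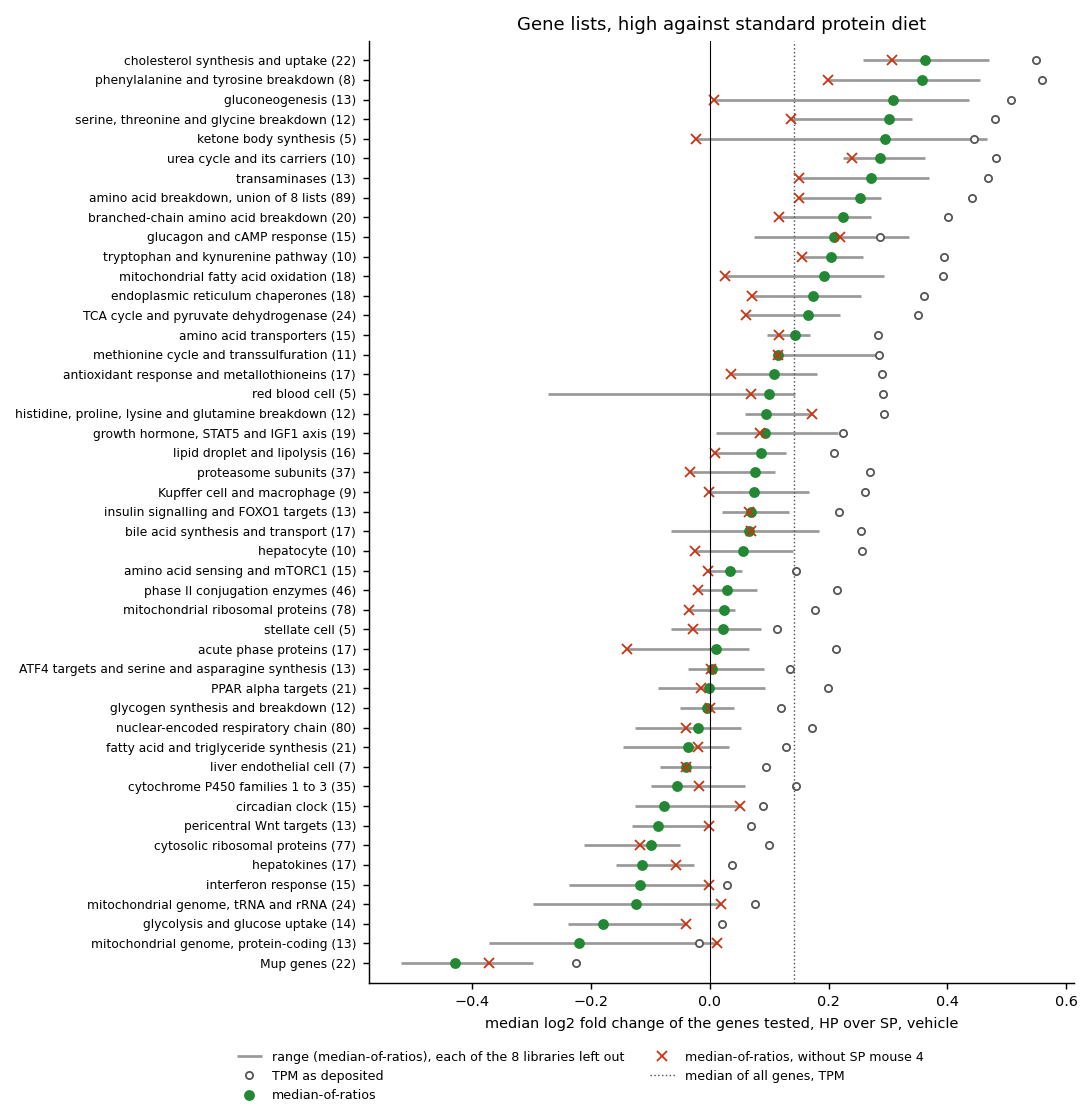
Median log2 fold change of HP over SP with vehicle (x axis) for each gene list with at least 5 genes tested (y axis, number tested in brackets). Filled circles are after median-of-ratios scaling, crosses the same without SP mouse 4, open circles TPM as deposited, grey lines the range of the scaled median with each of the 8 libraries left out, and the dotted line the median of all genes on TPM (0.14). Cholesterol synthesis and uptake is at the top (0.36, and 0.31 without SP mouse 4) and Mup genes at the bottom (-0.43, and -0.37), whereas gluconeogenesis drops from 0.31 to 0.01 without SP mouse 4.

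Slc22a7 and Bmyc were among the 15 genes that were lower on HP with separate groups under both scalings. Slc22a7, the organic anion transporter OAT2, stood at 16.9, 19.4, 19.97 and 16.04 TPM on SP and at 5.88, 13.2, 12.5 and 9.77 TPM on HP. Every HP mouse was below every SP mouse under both scalings, and the fold change was -0.80 on TPM (SE 0.27) and -0.999 after scaling (SE 0.23). Bmyc, a short relative of Myc, stood at 4.63, 6.24, 5.53 and 5.59 TPM on SP and at 2.64, 3.20, 4.48 and 2.98 TPM on HP. It was separate in the same way and had the smallest p of all genes after scaling (fold change -0.78, SE 0.15, limma adjusted p = 0.580). Cyp2d40, a cytochrome P450, had a scaled fold change of -0.64 (SE 0.19). Its groups overlapped on TPM, where SP mouse 1, at 25.2 TPM, lay at the HP level of 24.9 to 31.0 TPM, and not after scaling.

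Adora1, an adenosine receptor, and Mybph, a myosin binding protein, are neighbours on opposite strands of chromosome 1 whose annotated ends overlap, and whether reads were counted by strand is not given in the sources used here. Adora1 stood at 1.75, 3.07, 1.604 and 1.34 TPM on SP and at 3.99, 4.91, 3.96 and 4.44 TPM on HP. Mybph stood at 1.54, 2.28, 1.6025 and 0.837 TPM on SP and at 3.61, 4.32, 3.46 and 3.47 TPM on HP. Both were higher in every HP mouse than in any SP mouse under both scalings. The scaled fold change was 0.78 for Adora1 (SE 0.17) and 0.81 for Mybph (SE 0.20).

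A pair of microRNA genes had some of the most negative fold changes of the genes that were at an unadjusted p under 0.05 and separate under both scalings. They are shown by their mature sequences (RefSeq, GRCm38.p6) with the seed, bases 2 to 8, in capitals. The seeds differ, so the genes share no seed family.
miR-29c-5p: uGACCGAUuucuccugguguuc
miR-29c-3p: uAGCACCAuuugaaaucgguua
miR-8115: cCGCAAUAgcaacaagggcucu
Mir29c (chr1:195037547-195037634, plus strand) stood at 19.6, 28.0, 21.8 and 28.5 TPM on SP and at 16.8, 16.5, 15.6 and 16.2 TPM on HP. The HP values were close together and all below the SP values, with a scaled fold change of -0.74 (SE 0.31) and -0.59 without SP mouse 4. This value rests on 451 reads in the 8 libraries. Mir8115 (chr5:122682597-122682715, plus strand) had 9, 9, 7 and 11 reads on SP and 3, 3, 2 and 1 on HP, and a scaled fold change of -1.25 (SE 0.25). Both lie on the same strand as an overlapping gene, the noncoding A330023F24Rik for Mir29c and P2rx7 for Mir8115, and the libraries were not made from small RNA, so reads from precursors or from the overlapping genes cannot be told apart from one another here. They say nothing of the mature forms. Of the other genes that the naming rule took for the size of their difference, 8 were noncoding RNAs with 23 to 223 reads each in the 8 libraries. Gm27300, Gm27335, Mir1901 and Gm44148 had higher means on HP, and Gm27618, Mir1258, Gm23851 and Gm23202 lower ones.

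Mup transcripts took less of the HP libraries in mean. The 22 Mup genes, which encode pheromone carriers secreted into blood and urine, held 49.0%, 42.3%, 47.4% and 42.3% of TPM in the SP mice and 38.2%, 35.2%, 40.1% and 44.6% in the HP mice. Of the HP mice 3 lay below all SP mice, and HP mouse 4 lay within their range. The means were 45.3% ± 3.47 (SD, n = 4) and 39.5% ± 3.92 (SD, n = 4), a difference of -5.74 percentage points (two-sided exact permutation test, p = 0.114), where 4 against 4 cannot give a p below 0.0286. Of the 22 genes 1 was higher on HP, and the median log2 fold change was -0.23 on TPM and -0.43 after scaling (-0.37 without SP mouse 4). Mup genes are near-identical copies, so that reads may be split between them, and their values are uncertain as single genes. The pseudogene Mup-ps15 stood at 54.2, 33.6, 28.8 and 21.6 TPM on SP and at 11.9, 6.503, 13.9 and 13.1 TPM on HP. Its groups were separate under both scalings, with a scaled fold change of -1.70 (SE 0.44).

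The 37 genes of the mitochondrial genome held 16.1%, 16.2%, 13.8% and 24.0% of TPM on SP and 20.7%, 17.3%, 17.8% and 15.2% on HP. The means were 17.5% ± 4.44 (SD, n = 4) and 17.7% ± 2.29 (SD, n = 4), which differ by less than the spread between mice (two-sided exact permutation test, p = 0.943). For the 13 protein-coding genes the scaled median was -0.22 with SP mouse 4 and 0.01 without it. Nuclear genes of the respiratory chain (median -0.02 over 80 genes after scaling), mitochondrial ribosomal proteins (0.02 over 78), proteasome subunits (0.08 over 37) and acute phase proteins (0.01 over 17) lay near 0. Cytosolic ribosomal proteins, at 0.10 on TPM and -0.10 after scaling over 77 genes, lay on opposite sides of 0 under the scalings.

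The same diets were also compared in the G108-treated mice, which share no library with the vehicle comparison. The difference between the diet effects, the interaction of diet and G108 in limma, gave 0 genes at an adjusted p under 0.05 on TPM and after scaling (0.0%). On TPM, 5685 genes had an unadjusted interaction p under 0.05 (48.0%), where the median diet effect was 0.14 with vehicle and -0.35 with G108. After scaling, which sets both medians to 0.00, it was 855 genes (7.22%). The diet effect with G108 itself gave 0 calls in limma, with an unadjusted p under 0.05 for 5325 genes on TPM (45.0%) and 639 after scaling (5.4%), and separate groups for 2445 (20.7%) and 506 (4.27%). For the 89 amino acid breakdown genes, the scaled median was 0.25 with vehicle and -0.02 with G108, 77 and 36 of them were higher on HP, and 6 had an unadjusted interaction p under 0.05. For the 22 cholesterol genes it was 0.36 with vehicle and 0.15 with G108, with 22 and 17 higher and 0 at an unadjusted interaction p under 0.05. Mup genes had -0.43 with vehicle and 0.75 with G108, and 19 of 22 had an unadjusted interaction p under 0.05, as had 13 of 13 mitochondrial protein-coding genes (-0.22 and 0.93). Because 0 genes passed the adjustment, none of these is shown to differ between vehicle and G108.

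Among single genes, the scaled diet effect on Got1 was 1.20 with vehicle and -0.16 with G108 (difference -1.36, limma adjusted p = 0.575). Slc22a7 was lower on HP in both settings, by -0.999 and -0.54 after scaling, and Acmsd was higher in both, by 0.89 and 0.84. Gsta1 had scaled diet effects of 1.14 with vehicle and 1.05 with G108, and Gsta2 of 1.15 and 0.68. Of the 219 genes higher on HP with vehicle at an unadjusted p under 0.05 after scaling, 92 (42.01%) were also higher with G108, where 50.3% of all genes were. Of the 247 lower ones, 104 (42.1%) were also lower with G108, where 49.7% of all genes were. Across all genes tested, the diet effects with vehicle and with G108 correlated at -0.31 after scaling and at -0.34 on TPM. Slc22a7, Acmsd, Gsta1 and Gsta2, which kept their direction, are thus not typical of all genes.

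**Figure D5:**
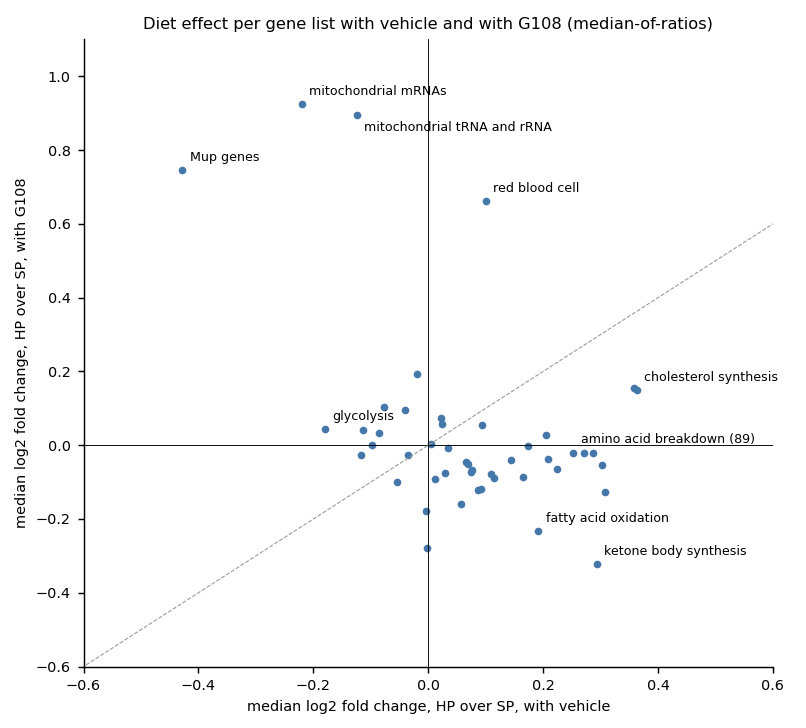
Median log2 fold change of HP over SP after median-of-ratios scaling for each gene list, with vehicle (x axis) and with G108 (y axis), each from 4 mice a side. The dashed line marks equal effects. Cholesterol synthesis is above 0 in both (0.36 and 0.15), amino acid breakdown lies at 0.25 and -0.02, and the Mup and mitochondrial genes lie at the upper left (-0.43 and 0.75 for Mup).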

How the data were processed

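Liver RNA of 16 male mice was sequenced by the authors, who checked the reads with FastQC 0.11.8, aligned them to GRCm38 with HISAT2 2.0.5, assigned them to genes with featureCounts and derived TPM from the counts, which they deposited in 1 table with 16 columns. All 16 columns were used, and groups came from the sample titles. The table holds 55487 gene identifiers, of which 55227 had a symbol and an exon length in the GENCODE annotation of GRCm38. The authors' own DESeq2 comparison was made on counts, which were not used here. No source used here says that a replicate number marks a shared day or batch, and mice were housed singly.

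Read totals were recovered from low TPM values, which are whole multiples of 1 read. Of 113078 such values 98.9% lay within 0.02 of a whole read. Depth, at 33.4 to 45.03 M reads per vehicle library, covers counting error only and not the spread between mice. Their parts in the precision were not separated, and genes with few reads carry more counting error. No libraries were duplicates of each other.

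The 11839 genes that averaged 1 TPM or more entered limma 3.58.1 (R 4.3.3) as log2(TPM + 1), with 1 mean per group, an intensity trend and all 16 libraries sharing 1 estimate of the spread. P-values were adjusted after Benjamini-Hochberg over those genes and a gene was called below 0.05. The same fit was run after median-of-ratios scaling with factors from 11591 genes. On simulated data, where 200 of 11839 genes differed by 1 on the log2 scale between these groups, the fit called 75.0% of them and 0 genes in a contrast without change. The simulated noise was independent between genes and had the same spread in all libraries, with no library set apart like SP mouse 4. The simulation therefore checks the fit and does not give the share of such changes that would be called in these data. Two-sided exact permutation tests served for shares of TPM (scipy 1.17.1). Promoter and microRNA sequences came from RefSeq tables.

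The genes named were fixed genes of nitrogen, glucose and lipid metabolism, every gene called, the up to 10 genes that were most raised and the up to 10 most lowered among those at an unadjusted p under 0.05 whose groups were separate under both scalings, and up to 4 genes per list with the smallest p. Of these, 71 were carried through all alternatives, and some are not reported here. Gsta1 and the other low genes are subject to the pseudocount of 1. The comparison, lists and named genes were chosen with earlier results of these data known. Alternatives were a pseudocount of 0.1, other filters and scalings, the vehicle libraries alone, a replicate block, array weights, voom on recovered reads and each library left out. The Mup share with Mup pseudogenes was added after seeing the data.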

Additional observations from a re-analysis of the deposited data

Results flagged for a closer look

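In 148 groups of 4 values looked at (71 named genes, both shares and the read totals, in SP and in HP), 4 held a value whose gap to the nearest other mouse exceeded Dixon's 95% critical value, where chance flags about 1 in 20 groups. Slc25a15, the ornithine carrier, was at 10.9 TPM in SP mouse 4, against 20.1 to 21.5 TPM in the other SP mice. Cyp2d40 was at 25.2 TPM in SP mouse 1, against 43.5 to 45.4 TPM in the other SP mice. The pseudogene Mup-ps21 was at 765 TPM in SP mouse 1, against 111 to 155 TPM in the other SP mice and 49.9 to 76.4 TPM on HP. Agxt, the alanine-glyoxylate aminotransferase, was at 176 TPM in HP mouse 1, against 137 to 139.9 TPM in the other HP mice. The difference between the diet effects with vehicle and with G108 called 0 genes in limma, and 855 had an unadjusted p under 0.05 after median-of-ratios scaling.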

How the results depend on the processing

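The number of genes called was 0 on TPM and after median-of-ratios scaling. It was 1 without a filter on low values (Snord15a), 1 with a replicate block and median-of-ratios scaling (Gsta2), 79 with array quality weights (53 higher, 26 lower) and between 0 and 2 with 1 library left out, where the 2 genes, Slc17a8 and Got1, came without SP mouse 1 after scaling. The array weights ranged from 0.162 for SP mouse 4 to 10.7 for HP mouse 3. They were 0.567, 0.742 and 1.14 for HP mice 1, 2 and 4, and 0.418, 1.04 and 2.87 for SP mice 1, 2 and 3. With these weights, HP mouse 3 counted for most of the HP group. Of the 71 named genes, 11 were called with these weights, among them Got1, Oat, Gls2, Acmsd, Sds and Ass1 of amino acid breakdown. Genes at an unadjusted p under 0.05 numbered 374, against 897 without a filter, 175 at a mean TPM of at least 5, 760 with TPM rescaled without mitochondrial genes and 1681 with array weights. With 1 library left out they numbered 208 to 1019 on TPM and 298 to 955 after scaling, where the count was 614 without SP mouse 2, 900 without SP mouse 3 and 955 without HP mouse 1. Genes with separate groups numbered 447 without a filter, 79 at a mean TPM of at least 5 and 253 to 1230 on TPM with 1 library left out. After scaling they numbered 503, 434, 619 and 469 without SP mouse 1, 2, 3 and 4, and 1376, 401, 339 and 418 without HP mouse 1, 2, 3 and 4. Intervals within a 2-fold change were 30180 without a filter and 4464 at a mean TPM of at least 5, out of more and of fewer genes tested.

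The difference in the mitochondrial share lay between -1.01 and 2.38 percentage points with 1 library left out, and it was below 0 without SP mouse 1 (-0.25), SP mouse 2 (-0.20), SP mouse 3 (-1.01) or HP mouse 1 (-0.77). Of 71 named genes, 67 kept the sign of their fold change in all 29 alternatives. The other 4 were Gcgr (0.036 with array weights, -0.27 to 0.16 with 1 library left out on TPM, 0.034 without SP mouse 4 after scaling), Fasn (-0.68 to 0.00071 on TPM), Igf1 (-0.044 without HP mouse 1 after scaling) and Slc38a2 (-0.078 without SP mouse 2 after scaling). The causes were not tested. With the replicate number as a block, 0 genes were called on TPM and 294 had an unadjusted p under 0.05. Same-numbered SP and HP mice correlated in their deviations after scaling at 0.04, 0.15, 0.20 and -0.32, so the numbers were not taken to pair mice.

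With 4 mice a side, differences well under 2-fold lay within the error for most genes, and a p that misses the threshold does not show that the diets act alike.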
